A study of Saccharomyces cerevisiae with 6 samples.

Results

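The genes described here encode ribosome biogenesis factors, the proteins that process ribosomal RNA and assemble ribosomal subunits in the nucleolus and nucleus. They were chosen by name from a list of 36 yeast genes. Of these, 35 were listed as nuclear mRNA features among 5605 such features and 5667 features in all. NOP10 was the remaining member and was not analysed here.

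Yeast makes ribosomes from a long precursor ribosomal RNA transcribed by RNA polymerase I. Small nucleolar RNAs, packaged with box C/D or box H/ACA proteins, guide methylation and pseudouridylation of this precursor, while helicases, GTPases and assembly factors drive its cleavage, folding and export. In budding yeast these genes form a co-regulated group that is known to be expressed strongly in fast growth on glucose. The genes are all nuclear, and their mRNAs are translated in the cytosol.

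RNA came from mitochondria isolated from the haploid laboratory strain CEN.PK113-7D. The 3 ethanol cultures grew in synthetic medium with ethanol and glycerol as the carbon source, and the 3 glucose cultures in the same kind of medium with glucose. All 6 were harvested during mid-exponential growth, and their RNA was given poly(A) tails enzymatically before Nanopore direct RNA sequencing, which reads RNA molecules without copying them. The study asked how the mitochondrial transcriptome differs between these carbon sources, and the design text calls the cultures biological triplicates. A lower level of an mRNA in the cell and less of it carried along with the mitochondria cannot be told apart in these libraries, since whole-cell RNA was not measured.

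Values are CPM (read counts divided by the library total), scaled so that each library sums to 1000000 over all listed features. Mitochondrially encoded features took between 3.15% and 12.6% of the CPM in ethanol and between 6.41% and 7.50% in glucose, and the glycolytic gene ENO2 between 4.94% and 49.9% in ethanol and between 2.63% and 6.81% in glucose. Because of that spread, levels were expressed relative to nuclear mRNA without ENO2, either as a percentage or as nuclear CPM, meaning CPM rescaled so that this total is 1000000. Values of single libraries are given in the order of replicates 1, 2 and 3. The steps between CPM values gave 8284, 19087 and 63081 nuclear mRNA reads without ENO2 for ethanol, against 121147, 97474 and 107311 for glucose. A single read was worth 121, 52.4 and 15.9 nuclear CPM for ethanol, and between 8.25 and 10.3 for glucose. Low values in ethanol replicates 1 and 2 thus rest on very few reads, and a gene with no read there could hold up to 362 and 157 nuclear CPM (3 reads). Over 1664 nuclear mRNA features, Pearson's r of log2 values lay between 0.651 and 0.775 for pairs of ethanol libraries and between 0.957 and 0.963 for pairs of glucose libraries, and between 0.182 and 0.490 for mixed pairs.

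Ribosome biogenesis mRNAs took a smaller part of nuclear mRNA in ethanol than in glucose. The 35 listed genes together took 0.531%, 0.0838% and 0.600% with ethanol, against 0.845%, 1.09% and 1.10% with glucose. The means were 0.405% ± 0.280 with ethanol and 1.01% ± 0.145 with glucose (n = 3 each, ± SD). The groups did not overlap, and the difference of -0.607 percentage points had the smallest p that 3 libraries against 3 allow (exact permutation test, two-sided, p = 0.1). A single gene, NOG2, made up 81.8%, 18.8% and 61.0% of the list's CPM with ethanol, against 11.0%, 23.7% and 23.9% with glucose. It is described on its own below, and sums are given with and without it.

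Without NOG2 the other 34 genes took 0.0966%, 0.0681% and 0.234% of nuclear mRNA with ethanol, against 0.752%, 0.829% and 0.840% with glucose. The means were 0.133% ± 0.0886 with ethanol and 0.807% ± 0.0481 with glucose (n = 3 each, ± SD), 6.07-fold lower in ethanol (exact permutation test, two-sided, p = 0.1). Ethanol replicate 3 was the highest of its group, and the ethanol mean without it was 0.0823%. These shares rest on 8, 13 and 147.5 reads in ethanol and on 910.5, 808 and 901 reads in glucose. Their 95% Wilson intervals, which cover counting error only, reached at most 0.276% in the ethanol libraries and started at 0.705% or above in the glucose libraries.

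**Figure D1:**
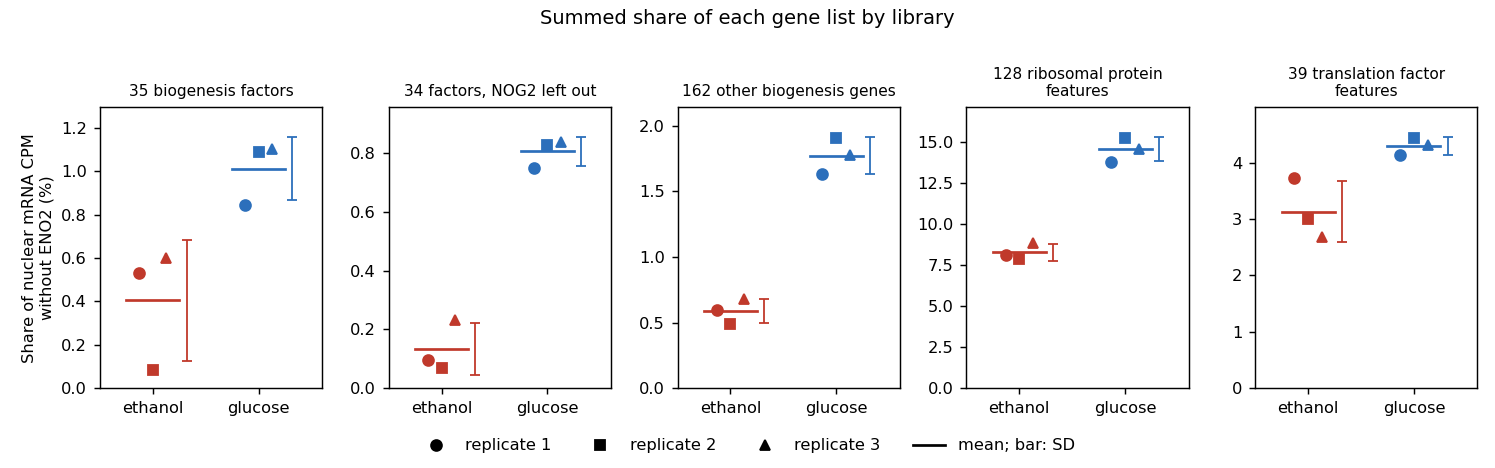
Share of nuclear mRNA CPM without ENO2 (%, linear axes that start at 0) in each library for the 35 biogenesis factors, the 34 without NOG2, 162 other biogenesis genes, 128 ribosomal protein features and 39 translation factor features. Symbols are replicates, horizontal lines means and vertical bars SD (n = 3). Ethanol libraries lie below glucose libraries in all 5 panels, and the biogenesis factors without NOG2 average 0.133% in ethanol and 0.807% in glucose.

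The lower level was spread over the list. For 33 of the 35 genes every ethanol library lay below every glucose library in nuclear CPM, a pattern found in 21.8% of the 5472 nuclear mRNA features with a read in any library, and for no member did every ethanol library lie above, as in 13.1% of those features. NOG2 and TIF6 were the genes whose groups overlapped. The same pattern was found in 31.9% of the 1664 features averaging 10 CPM or more; the members at that level mostly reached it through glucose, so no count of them is read against that share. Every listed member had reads in each glucose library, while 27, 23 and 3 of the 35 had none in ethanol replicates 1, 2 and 3. Only 5 members had a read in all 3 ethanol libraries. Such counts depend on depth, with 8284 and 19087 nuclear mRNA reads in ethanol replicates 1 and 2. No share over all features stands beside them, so they describe the reads and are not read as a trait of the list. Over the 34 genes without NOG2, the ratio of the ethanol mean to the glucose mean had a median of 0.122. These means weigh the 3 libraries alike, zeros of the shallow replicates 1 and 2 included, and the ratio was not set against that of all features.

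Differences of single genes were tested with limma on log2(nuclear CPM + 100), a scale that understates the change of genes with low values, with Benjamini-Hochberg adjustment over all features tested. With no filter on low values, 22 of the 35 members had an adjusted p under 0.05, all of them lower in ethanol, where 7.38% of the 5472 features were called lower. The median log2 fold change was -1.15 over the 35 members and -0.08 over all 5472 features. Those 5472 include every feature with a read, while each of the 34 members without NOG2 had at least 26 glucose reads. Neither 7.38%, here and below, nor -0.08 is thus a value for features of like level. With a filter at a mean of 10 CPM, which sets the genes named here, 22 members were tested. Of them, 17 were called lower and none higher, beside 20.5% of the 1664 features called lower and 18.1% called higher. An unadjusted limma p under 0.05 was found for 19 members and for 847 of the 1664 features. Of these 22 members, 21 reached the filter through their glucose values alone, so the calls are given gene by gene and their number does not support a statement on the list. Leaving out a glucose library lowered the number called to 10, 8 and 8 without replicates 1, 2 and 3, and it was between 14 and 18 when any ethanol library was left out. Where nuclear mRNA with ENO2 was the total, all 22 were called lower, as were 1204 of the 1664 features, and 15 were called lower on the deposited CPM scale, where 11.2% of features were lower and 2.1% higher. With voom, run on reads recovered from the steps between CPM values, an alternative chosen after seeing the data, 16 were called lower, beside 20.4% of features lower and 21.7% higher.

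**Figure D2:**
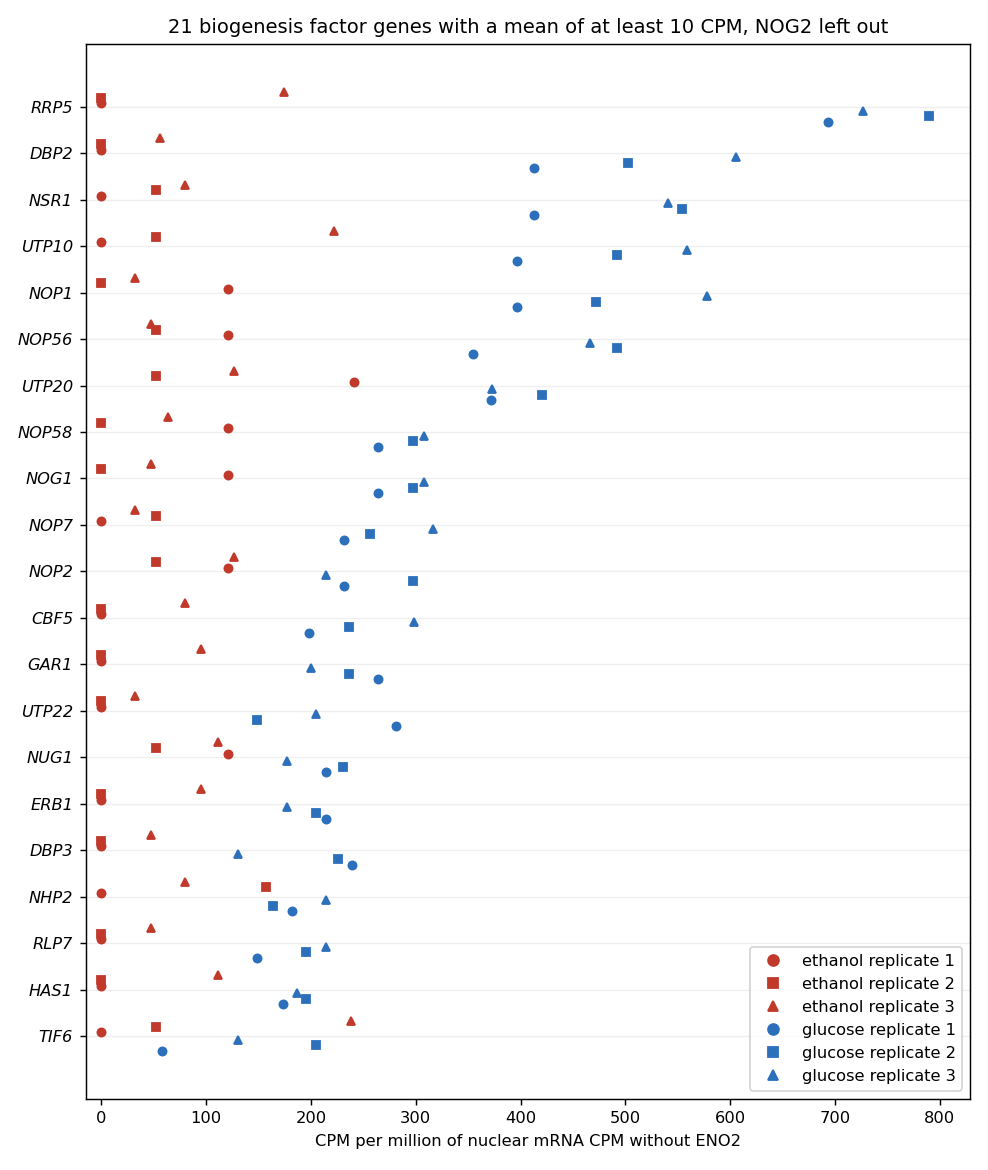
Nuclear CPM (linear axis) of the 21 members other than NOG2 with a mean of at least 10 CPM, ordered by glucose mean. Red symbols are ethanol libraries and blue symbols glucose libraries, with 1 symbol shape per replicate and a small vertical offset so that equal values can be seen. All ethanol symbols lie left of all glucose symbols in each row except that of TIF6, which had 238 nuclear CPM in ethanol replicate 3.

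Box C/D small nucleolar ribonucleoproteins (snoRNPs) methylate ribosomal RNA on its ribose. Without a filter on low values limma called the 3 listed core proteins lower in ethanol, beside 7.38% of all features. With the filter, which all 3 passed through glucose, they were called lower as well, beside 20.5% of features. NOP1 (chromosome 4, 427035 to 428018, plus strand, CEN.PK113-7D assembly), the methyltransferase known as fibrillarin in other species, had 121, 0 and 31.7 nuclear CPM with ethanol, against 396, 472 and 578 with glucose. All ethanol values lay below the glucose values, and the unweighted mean was 9.49-fold lower. They rest on 3 reads in ethanol and 156 in glucose, a pooled ratio of 0.0693 with a 95% counting interval from 0.0141 to 0.206, and the log2 fold change was -2.02 ± 0.35 (SE, limma adjusted p = 0.00244). NOP56 (chromosome 12, 505932 to 507446, plus strand), a scaffold subunit of the same particle, had 121, 52.4 and 47.6 nuclear CPM with ethanol and 355, 492 and 466 with glucose (log2 fold change -1.65 ± 0.29, limma adjusted p = 0.00283). NOP58 (chromosome 15, 891123 to 892658, minus strand), its partner subunit, had 121, 0 and 63.4 nuclear CPM with ethanol and 264, 298 and 308 with glucose (log2 fold change -1.34 ± 0.35, limma adjusted p = 0.0145). Summed, the 3 genes took 0.0186% ± 0.0159 of nuclear mRNA with ethanol and 0.121% ± 0.0174 with glucose (n = 3 each, ± SD, exact permutation p = 0.1), with no overlap.

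Box H/ACA snoRNPs carry out pseudouridylation. Without a filter on low values limma called 2 of their 3 listed subunits lower in ethanol, beside 7.38% of all features. With the filter, which all 3 passed through glucose, 2 were called lower, beside 20.5% of features. CBF5 (chromosome 12, 466042 to 467502, plus strand), the pseudouridine synthase, had 0, 0 and 79.3 nuclear CPM with ethanol, against 198, 236 and 298 with glucose (log2 fold change -1.49 ± 0.36, limma adjusted p = 0.0102). GAR1 (chromosome 8, 283115 to 283732, minus strand), a glycine- and arginine-rich subunit, had 0, 0 and 95.1 nuclear CPM with ethanol and 264, 236 and 200 with glucose (log2 fold change -1.41 ± 0.36, limma adjusted p = 0.0145). In both genes the only ethanol reads, 5 and 6, came from replicate 3. NHP2, the RNA-binding subunit, averaged 78.8 ± 78.6 nuclear CPM with ethanol and 187 ± 25.5 with glucose (n = 3 each, ± SD) and did not pass the threshold (log2 fold change -0.78 ± 0.39, limma adjusted p = 0.13). Its ethanol replicate 2, with 157 nuclear CPM from 3 reads, came close to the lowest glucose library, at 164. The 3 genes summed to 0.0137% ± 0.0128 of nuclear mRNA with ethanol and 0.0664% ± 0.00423 with glucose (n = 3 each, ± SD, exact permutation p = 0.1), without overlap.

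NSR1 (chromosome 7, 829865 to 831109, minus strand), the yeast relative of nucleolin, which binds nascent precursor ribosomal RNA, had 0, 52.4 and 79.3 nuclear CPM with ethanol, against 413, 554 and 540.5 with glucose. The groups did not overlap, and the unweighted mean was 11.4-fold lower in ethanol. Over pooled reads, 6 in ethanol and 162 in glucose, the ratio was 0.133 with a 95% counting interval from 0.0483 to 0.297, and the limma log2 fold change was -2.10 ± 0.31 (SE, adjusted p = 0.00125).

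Factors of the small-subunit processome, the large particle that forms on the new transcript, included the lowest log2 fold change of the list. RRP5 (chromosome 13, 703311 to 708500, minus strand), which acts in the assembly of both subunits, had 0, 0 and 174 nuclear CPM with ethanol, against 693, 789.96 and 727 with glucose. Its 11 ethanol reads all came from replicate 3, while each glucose library had at least 77, and the unweighted mean was 12.7-fold lower in ethanol. Over pooled reads, 11 in ethanol and 239 in glucose, the ratio was 0.166 with a 95% counting interval from 0.0817 to 0.302, a smaller difference than that of the means (log2 fold change -2.58 ± 0.40, SE, limma adjusted p = 0.00155). UTP10 (chromosome 10, 195269 to 200578, minus strand), part of a subcomplex that binds the start of the precursor, had 0, 52.4 and 222 nuclear CPM with ethanol and 396, 492 and 559 with glucose (log2 fold change -1.77 ± 0.42, limma adjusted p = 0.00968). UTP20 (chromosome 2, 223273 to 230754, plus strand), the longest feature of the list, had 241, 52.4 and 127 nuclear CPM with ethanol and 371, 421 and 373 with glucose (log2 fold change -1.10 ± 0.33, limma adjusted p = 0.0277). UTP20 was among the 5 members with reads in every ethanol library, and its mean was 2.77-fold lower. UTP22 (chromosome 7, 685865 to 689578, plus strand), a processome subunit linked to ribosomal protein gene control, had 0, 0 and 31.7 nuclear CPM with ethanol and 281, 149 and 205 with glucose (log2 fold change -1.48 ± 0.34, limma adjusted p = 0.00901). The 7 small-subunit factors together took 0.0332% ± 0.0284 of nuclear mRNA with ethanol and 0.220% ± 0.0115 with glucose (n = 3 each, ± SD, exact permutation p = 0.1), without overlap.

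RNA helicases unwind precursor ribosomal RNA and release small nucleolar RNAs from it, and 2 of the 5 listed were called lower by limma without a filter on low values, where 7.38% of all features were. With the filter, which all 3 tested helicases passed through glucose and where 20.5% of features were called lower, HAS1 was called as well; without it HAS1 had an adjusted p of 0.059 (limma). DBP2 (chromosome 14, 403455 to 406061, plus strand), a DEAD-box helicase that also acts on mRNA, had 0, 0 and 55.5 nuclear CPM with ethanol, against 413, 503 and 606 with glucose. Its log2 fold change was -2.38 ± 0.31 (SE), with the lowest limma adjusted p of the 22 members tested, 0.000609. DBP3 (chromosome 7, 378211 to 379782, minus strand) had 0, 0 and 47.6 nuclear CPM with ethanol and 239, 226 and 130.5 with glucose (log2 fold change -1.37 ± 0.35, limma adjusted p = 0.0145). HAS1 (chromosome 13, 826946 to 828463, minus strand), which helps release small nucleolar RNAs from the precursor, had 0, 0 and 111 nuclear CPM with ethanol and 173, 195 and 186 with glucose (log2 fold change -1.15 ± 0.38, limma adjusted p = 0.0396). All reads of these helicases in ethanol came from replicate 3. The 5 listed helicases summed to 0.0115% ± 0.0156 of nuclear mRNA with ethanol and 0.105% ± 0.00818 with glucose (n = 3 each, ± SD, exact permutation p = 0.1). HAS1 was the least stable of the called members, past the threshold in 7 of 16 alternatives.

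Factors of large-subunit assembly were the biggest role group, with 13 genes, of which 5 reached 10 CPM. Without a filter limma called 9 of the 13 lower, beside 7.38% of all 5472 features. NOP7 (chromosome 7, 718917 to 720734, plus strand), needed for processing of large-subunit ribosomal RNA, had 0, 52.4 and 31.7 nuclear CPM with ethanol, against 231, 256 and 317 with glucose (log2 fold change -1.54 ± 0.32, limma adjusted p = 0.00535). ERB1 (chromosome 13, 344935 to 347358, minus strand), which forms a complex with NOP7, had 0, 0 and 95.1 nuclear CPM with ethanol and 215, 205 and 177 with glucose (log2 fold change -1.26 ± 0.37, limma adjusted p = 0.0242). RLP7 (chromosome 14, 615873 to 616841, minus strand), a relative of ribosomal protein L7 that stays in the precursor particle, had 0, 0 and 47.6 nuclear CPM with ethanol and 149, 195 and 214 with glucose (log2 fold change -1.32 ± 0.34, limma adjusted p = 0.0147). These 3 genes were lower in ethanol, with no overlap, as were 31.9% of the 1664 features averaging 10 CPM or more. NOP2 (chromosome 14, 500258 to 502114, plus strand), a methyltransferase of large-subunit ribosomal RNA, did not pass the threshold, with 121, 52.4 and 127 nuclear CPM with ethanol and 231, 298 and 214 with glucose (log2 fold change -0.81 ± 0.30, limma adjusted p = 0.0555). TIF6, which keeps the new large subunit from joining the small subunit too early, averaged 96.7 ± 125 nuclear CPM with ethanol and 131 ± 73.7 with glucose (n = 3 each, ± SD). Its log2 fold change was -0.37 ± 0.48 (limma adjusted p = 0.559), and it was 0.0246 without ethanol replicate 1. Replicate 3 held 15 of its 16 ethanol reads. Summed, the 13 genes took 0.0364% ± 0.0347 of nuclear mRNA with ethanol and 0.194% ± 0.00858 with glucose (n = 3 each, ± SD, exact permutation p = 0.1), again without overlap.

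**Figure D3:**
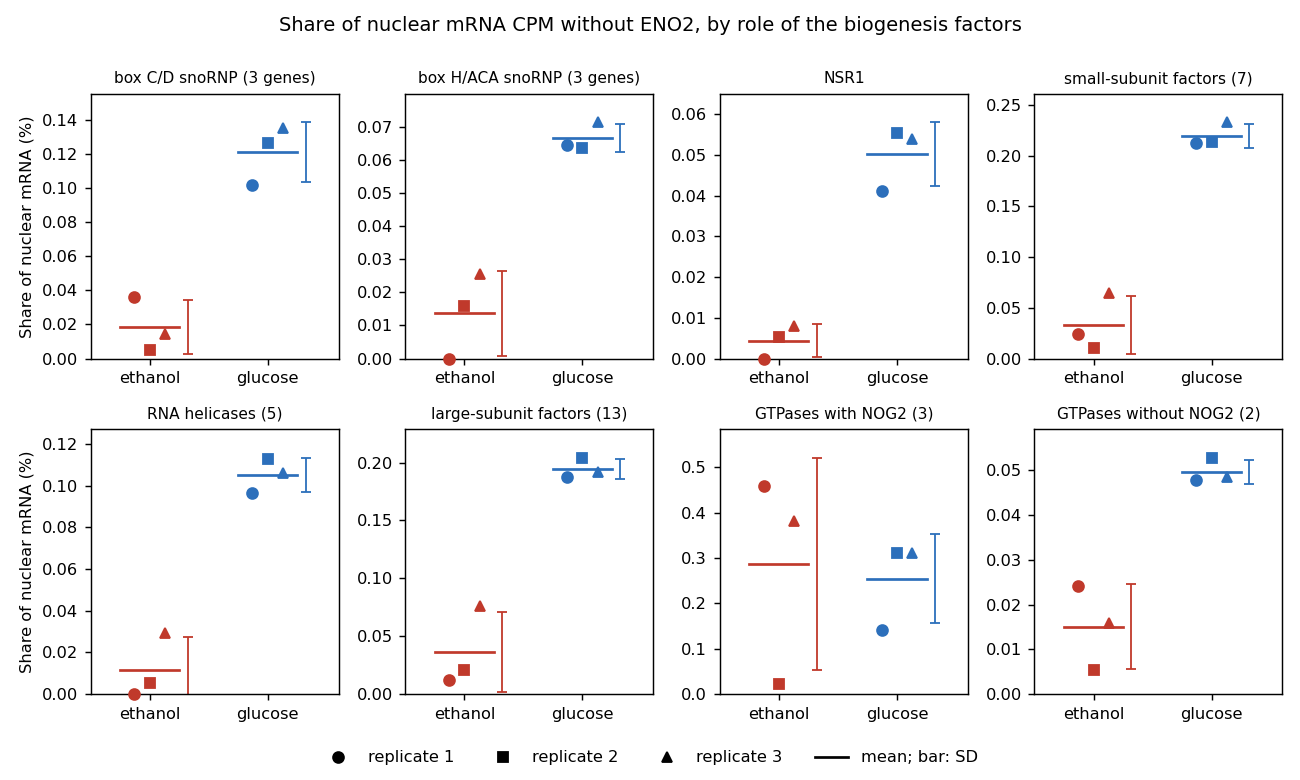
Share of nuclear mRNA CPM without ENO2 (%, linear axes that start at 0) by role of the biogenesis factors in each library. Symbols are replicates, horizontal lines means and vertical bars SD (n = 3, not drawn below 0). Ethanol libraries lie below glucose libraries in each panel except that of the GTPases with NOG2, where the groups overlap, and the large-subunit factors average 0.0364% in ethanol and 0.194% in glucose.

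The members under 10 CPM were UTP4, NOP14, RRP9, DRS1, MAK5, NOP4, NOP12, NOP13, NOP15, NOP16, EBP2, BRX1 and RLP24, and no values are given for them one by one. Each of these 13 genes had between 26 and 53 reads over the 3 glucose libraries and between 0 and 4 over the 3 ethanol libraries. Together they had 27 reads in ethanol and 475 in glucose. For all 13 every ethanol library lay below every glucose library, as for 21.8% of the 5472 features with a read. A count of 0 in a shallow ethanol library is enough to lie below any glucose library with a read. Without the filter limma called 7 of the 13 lower, beside 7.38% of the 5472 features. For 3 of them no ethanol read was found, which allows up to 33.2 nuclear CPM if the 3 ethanol libraries share a level (3 reads over the group, most of whose depth is replicate 3). In ethanol replicate 1 alone a difference was not detectable at this depth. A count of 0 there allows up to 362 nuclear CPM, more than the glucose mean of any of these genes. In replicate 2 a count of 0 allows up to 157 nuclear CPM, more than the glucose means of most of them.

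GTPases of large-subunit maturation were the exception, through NOG2. NOG1 (chromosome 16, 379296 to 381239, plus strand), which is needed for large-subunit maturation, had 121, 0 and 47.6 nuclear CPM with ethanol, against 264, 298 and 308 with glucose, and was lower in ethanol (log2 fold change -1.39 ± 0.35, limma adjusted p = 0.0126). NUG1, needed for export of the large subunit from the nucleus, averaged 94.7 ± 37.0 nuclear CPM with ethanol and 207.5 ± 27.6 with glucose (n = 3 each, ± SD) and did not pass the threshold (log2 fold change -0.67 ± 0.30, limma adjusted p = 0.0948). NOG2 (chromosome 14, 710783 to 712774, minus strand), a GTPase that checks a late step of large-subunit assembly, had 4346, 157 and 3662 nuclear CPM in ethanol, against 933, 2580.2 and 2633 in glucose. The 3 GTPases summed to 0.287% ± 0.234 of nuclear mRNA with ethanol and 0.255% ± 0.0982 with glucose (n = 3 each, ± SD, exact permutation p = 0.8), and without NOG2 to 0.0151% ± 0.00948 with ethanol and 0.0497% ± 0.00271 with glucose (exact permutation p = 0.1). For NOG2, ethanol replicates 1 and 3 were above all glucose libraries and ethanol replicate 2 was below them. The log2 fold change of NOG2 was -0.27 ± 0.94 (SE, limma adjusted p = 0.828), and it was 1.06 without ethanol replicate 2.

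NOG2 also stood apart in level, except in ethanol replicate 2. It averaged 2722 nuclear CPM in ethanol and 2048 in glucose. The other 34 members averaged between 0 and 140 in ethanol and between 80.7 and 737 in glucose. In ethanol replicate 2, NOG2 and NHP2 both had 157. The NOG2 feature in the deposited tables is a single interval whose length, 1992 bases, equals its whole span. In the R64 annotation of strain S288C, in which all 35 members have a gene of the same name, NOG2 is the only member that overlaps another gene. That gene is snR191, a box H/ACA small nucleolar RNA on the same strand and inside the gene. Reads from the NOG2 mRNA and from a small nucleolar RNA within it cannot be told apart in the deposited values, and the part of the snoRNA in the NOG2 values was not tested.

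The other genes with a small nucleolar RNA inside were looked up after the NOG2 values were seen. With NOG2, R64 has 8 such genes, 2 with a box H/ACA and 6 with a box C/D RNA. The other box H/ACA host, RPS22B, which encodes a protein of the small subunit, had 604, 209.6 and 3868 nuclear CPM with ethanol, against 330.2, 498 and 857 with glucose. Its ethanol replicate 3 was the highest of the 6 libraries, while NOG2 was highest in ethanol replicate 1. Of the 6 box C/D hosts, RPL7A, RPL7B, TEF4 and ASC1 were lower in every ethanol library than in any glucose library. This pattern was found in 31.9% of the 1664 features averaging 10 CPM or more, and in 92 of the 125 ribosomal protein features among them. It is thus not particular to these hosts. EFB1 and IMD4 overlapped, and EFB1, which encodes a translation elongation factor, had 4587 nuclear CPM in ethanol replicate 1 and at most 1939 in any other library.

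**Figure D4:**
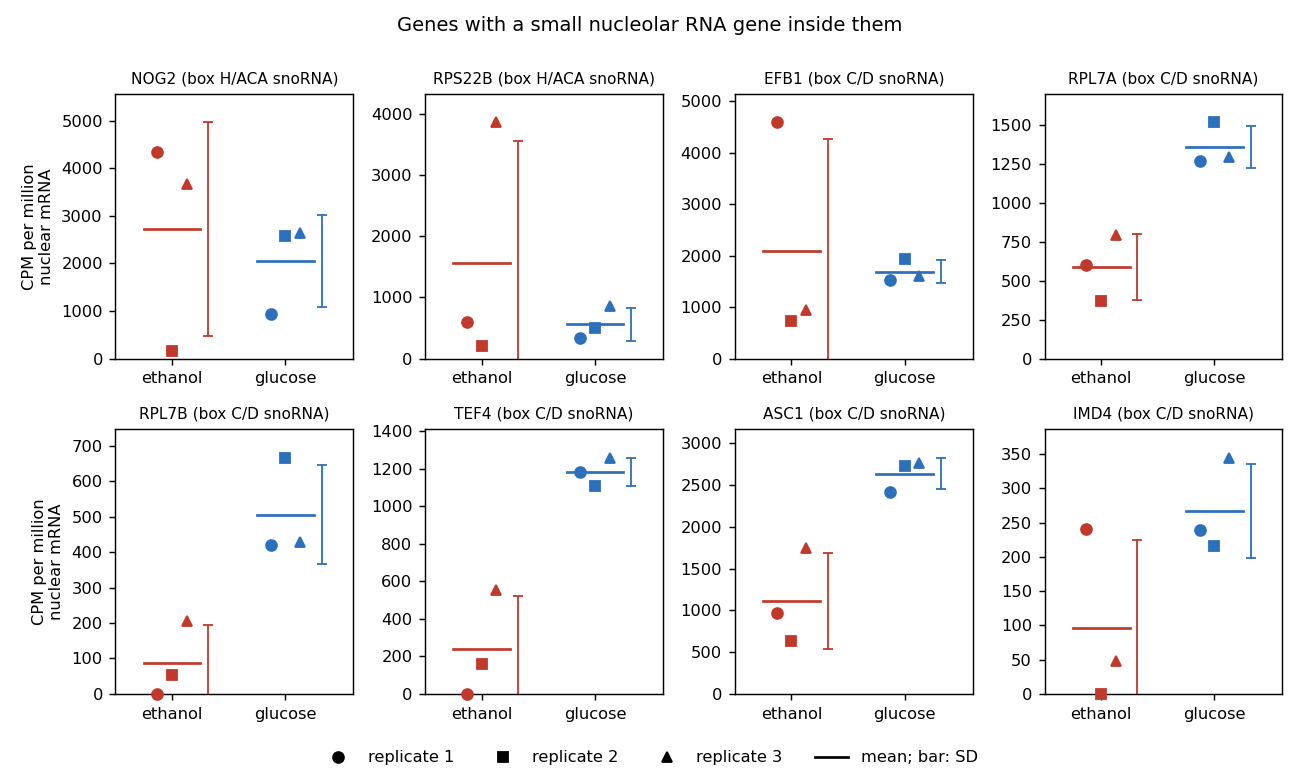
Nuclear CPM (linear axes that start at 0) in each library for the 8 features that hold a small nucleolar RNA gene in the R64 annotation, with the class of that RNA in each title. Symbols are replicates, horizontal lines means and vertical bars SD (n = 3, not drawn below 0). NOG2 is at 4346 and 3662 nuclear CPM in ethanol replicates 1 and 3 and at 157 in replicate 2, and RPS22B at 3868 in ethanol replicate 3.

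Other genes of the pathway, from a list of 169 names of which 162 were listed, were also lower in ethanol. Their summed share of nuclear mRNA was 0.600%, 0.492% and 0.679% with ethanol, against 1.63%, 1.91% and 1.78% with glucose, 3.01-fold lower in ethanol on average and without overlap (exact permutation test, two-sided, p = 0.1). With the filter at 10 CPM, 17 of the 28 tested were called lower by limma and none higher, and 11 did not pass, beside 20.5% of features called lower and 18.1% higher; the filter favours genes that are high in glucose. Without it, 36 of the 162 were called lower, beside 7.38% of features. The 17 became 10, of 28, on the deposited CPM scale and 8 with a pseudocount of 20. The strongest were the RNA polymerase I subunits RPA135 and RPA190, with log2 fold changes of -1.97 ± 0.49 and -1.89 ± 0.55 (limma adjusted p = 0.012 and 0.0232), and RRP12, which acts in export of both subunits, with -1.85 ± 0.32 (limma adjusted p = 0.0026). RPA190, the largest subunit of the polymerase, averaged 234 nuclear CPM in ethanol and 899 in glucose. ARX1, an export factor of the large subunit, averaged 5.28 nuclear CPM in ethanol and 227 in glucose, and the GTPase BMS1 15.9 in ethanol and 238 in glucose. Their ethanol means rest on 1 and 3 reads, all from replicate 3. Both lie below 33.2 nuclear CPM, the worth of 3 reads over the ethanol group, so the size of these differences is not well measured. Others past the threshold among the first 10 by size were MDN1, the giant ATPase that remodels large-subunit precursors, PUF6, the exosome-linked helicase MTR4, MAK21 and the helicase PRP43, with log2 fold changes between -1.43 and -1.22.

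Regulators of the pathway gave overlapping sums. The 8 regulator genes on the list took 0.0763% ± 0.0258 of nuclear mRNA with ethanol and 0.0661% ± 0.00800 with glucose (n = 3 each, ± SD), with overlapping groups (exact permutation test, two-sided, p = 0.7). Single regulators differed in direction. For 2 of the 8 every ethanol library lay below every glucose library, as for 21.8% of features with a read. Without a filter limma called 1 of the 8 lower and 0 higher, beside 7.38% of features called lower. The regulators with a mean of at least 10 CPM were SCH9, a nutrient-responsive kinase, and DOT6, a repressor of ribosome biogenesis genes. SCH9 averaged 249 nuclear CPM in ethanol and 138 in glucose, and DOT6 254 in ethanol and 146 in glucose. Neither passed the threshold (log2 fold changes 0.42 ± 0.43 and 0.50 ± 0.32, limma adjusted p = 0.449 and 0.229).

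**Figure D5:**
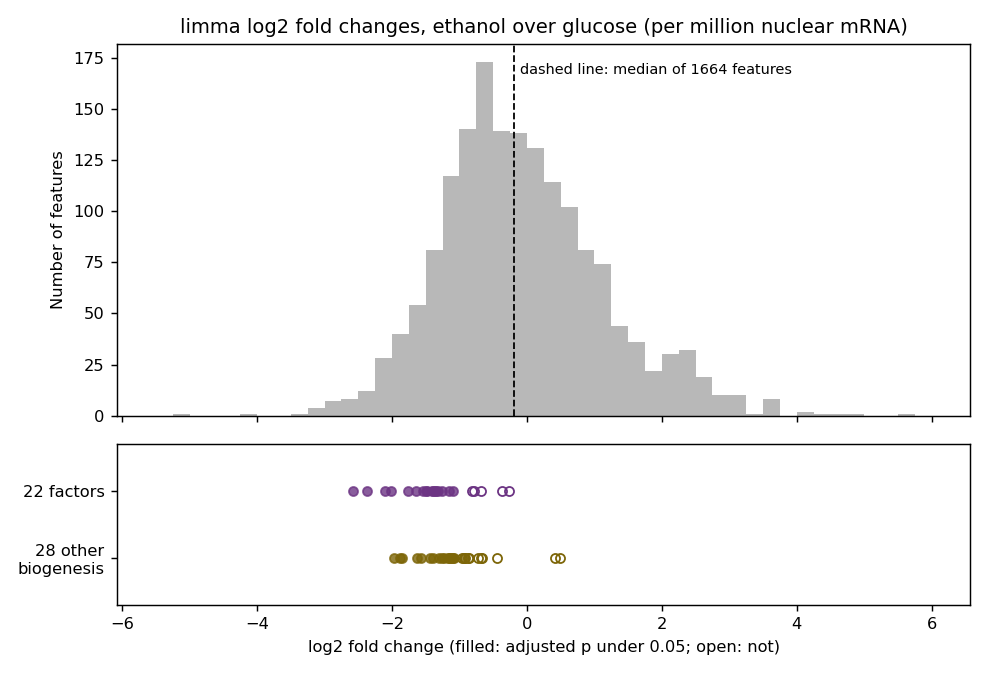
Top, number of the 1664 nuclear mRNA features tested by limma log2 fold change, ethanol over glucose, on log2(nuclear CPM + 100), with the median of -0.20 as a dashed line. Bottom, the 22 biogenesis factors and 28 other biogenesis genes tested, filled where the adjusted p was under 0.05. The factors lie between -2.58 and -0.27, and 21 of the 22 were tested only because of their glucose values.

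The biogenesis factors were set against cytosolic ribosomal protein genes, which are known to be induced together with them, within each library, where scaling plays no part. Ribosomal protein genes themselves took 8.28% ± 0.515 of nuclear mRNA with ethanol and 14.6% ± 0.729 with glucose (n = 3 each, ± SD, exact permutation p = 0.1). The CPM of the 34 factors without NOG2 equalled 1.19%, 0.868% and 2.64% of the ribosomal protein CPM with ethanol, against 5.44%, 5.43% and 5.75% with glucose. The groups did not overlap, and the log2 ratio differed by -1.99 (exact permutation test, two-sided, p = 0.1), and by -1.97 when the ribosomal protein genes that hold a small nucleolar RNA were left out as well. With NOG2 in the sum the groups overlapped, with 6.53%, 1.07% and 6.78% with ethanol and 6.11%, 7.11% and 7.55% with glucose, and the log2 difference was -0.93 (exact permutation test, two-sided, p = 0.4). Relative to the other biogenesis genes, the 34 factors stood at 16.1%, 13.8% and 34.5% in ethanol and at 46.0%, 43.4% and 47.3% in glucose (log2 difference -1.21, exact permutation p = 0.1). Translation factors took 3.14% ± 0.539 with ethanol and 4.30% ± 0.153 with glucose, 1.37-fold lower in ethanol (n = 3 each, ± SD, exact permutation p = 0.1).

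The scale moved the values of all features. The median log2 fold change of all 1664 features was -0.20 in nuclear CPM, -1.48 in deposited CPM, -0.54 with trimmed-mean factors and -0.90 with ENO2 in the total, and that of the 22 members tested was -1.38, -3.56, -1.61 and -1.41 in the same order. Since 21 of these 22 passed the filter through glucose, their medians and signs are no support for a lower level of the list and only show how far the scale moves them. The calls over all features were 341 lower and 301 higher in nuclear CPM, 187 and 35 in deposited CPM, 506 and 182 with trimmed-mean factors, and 1204 and 94 with ENO2 in the total.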

How the data were processed

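The authors deposited 1 table of CPM values per carbon source. Per the file headers, features lie on a CEN.PK113-7D assembly; tools named in the submitters' processing notes are STAR 2.5.4a, SAMtools, featureCounts and edgeR, with no role given. Read filters are not given in the sources used here. CPM steps gave the value of 1 read, and between 89.1% and 94.9% of nonzero values per library were whole reads (within 0.005), and the rest were fractional, so no count test was the main test. No value column lacked a sample.

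Computed here: list sums as a share of nuclear mRNA CPM without ENO2, compared with two-sided exact permutation tests (smallest p 0.1), and limma 3.58.1 in R 4.3.3 (lmFit, eBayes with trend) on log2(nuclear CPM + 100) over the 1664 features averaging 10 CPM or more, Benjamini-Hochberg threshold 0.05. The model was also run on simulated reads with the same spread between replicates in both groups. That run does not test the calls against a wider spread among ethanol libraries. Python 3.11.15, numpy 2.4.6, pandas 2.3.3, scipy 1.17.1 and matplotlib 3.10.9 were used. R64 (S288C) served for gene names and neighbours only.

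Named genes: members averaging 10 CPM or more, written out by library for the 12 highest and those past the threshold; up to 10 other biogenesis genes past it by size; regulators above 10 CPM. Hosts of small nucleolar RNAs were added after the NOG2 values were seen. Promoter and protein sequences were not used here. Members and lists were chosen with earlier results of these data known. Alternatives were other pseudocounts, filters, scalings, denominators, a replicate block and leaving out each library; voom on recovered reads and sums without NOG2 under these alternatives were added after seeing the data.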

Additional observations from a re-analysis of the deposited data

How the results depend on the processing

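The depth of the ethanol libraries limits single genes most, since 27 and 23 of 35 members had no read in replicates 1 and 2. The summed shares of the 35 members, the 34 without NOG2 and the other biogenesis genes kept their direction under every denominator and left-out library tried. So did the ratio to ribosomal protein genes, with and without NOG2 and with each library left out. The smaller sums of the 3 GTPases with NOG2 and of the 8 regulators had higher means in ethanol, with overlapping groups. No exact test could pass 0.05. Leaving out 1 library put the share difference of the 35 members between -0.704 and -0.446 percentage points, that of the 34 without NOG2 between -0.724 and -0.642, that of the other biogenesis genes between -1.25 and -1.12, and the log2 ratio between -1.39 and -0.05, the second without ethanol replicate 2. The members called numbered between 8 and 18 when 1 library was left out, the other biogenesis genes between 4 and 21, and all features between 344 and 917; the lowest counts were without a glucose library. The other biogenesis genes called were 8 with a pseudocount of 20, 36 without a filter (of 162), 10 on deposited CPM and 27 with ENO2 in the total. All features called were 642, against 206 of 307 at 50 CPM, 222 on deposited CPM and 1298 with ENO2 in the total. At 50 CPM no count of members was made, since NOG2 alone was tested. TIF6 had log2 fold changes between -0.853 and 0.0246 when 1 library was left out, the second without ethanol replicate 1, and 0.40 with voom. NOG2 ranged between -0.997 and 1.06, the second without ethanol replicate 2. The cause of these changes was not tested. Over all single members and alternatives, 301 values kept direction and call, 37 lost the threshold, 12 gained it and 3 changed sign. Same-numbered libraries did not deviate together (r = 0.00298, -0.0343 and 0.0558), and not every library correlated best with its own number, so the replicate number is only a name. With a replicate block, 17 members, 17 other biogenesis genes and 673 features were called, the share difference of the members was -0.607 with an exact p of 0.25, that of the other genes -1.18 with an exact p of 0.25, and the log2 ratio -0.93 with an exact p of 0.5.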

Other observations

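Among named features outside the list, the 5 whose log2 values followed the summed 34 members most closely over the 6 libraries were SHM2, BAT1, KAP123, LYS12 and PMT4, with Pearson's r between 0.995 and 0.997. They encode a serine hydroxymethyltransferase, a branched-chain aminotransferase, a nuclear import receptor that carries ribosomal proteins, a lysine synthesis enzyme and a protein mannosyltransferase. These correlations are a description over 6 libraries that share the contrast between carbon sources, and all 5 genes were also lower in ethanol, with limma log2 fold changes between -2.92 and -1.17. With NOG2 in the sum the 5 closest features were DLD3, SUP35, RPL6B, RPB2 and RNR1, with r between 0.987 and 0.997.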
